A study of Mus musculus with 4 samples.

Results

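The 41 genes described here are listed under a pair of programmes that cells switch on within minutes of a disturbance, the immediate early response and the heat shock response. Some of them, such as the chaperone genes Hspa8 and Hsp90ab1, are made at all times. The genes were taken by name from a list: 29 early response genes and 12 heat shock genes, of 33456 gene entries in the deposited tables. All 41 were found by symbol, and all are annotated as protein-coding genes. The question was whether their level followed cell type, sequencing depth or library. That question arises from how the cells were handled, since hindlimbs were digested with enzymes at body temperature, and the cells were then frozen and thawed before capture.

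The cells came from the hindlimbs of C57BL/6 mouse embryos of 4 stages, E11.5 then E13.5, E15.5 then E18.5, which the labels tie to the forming limb bud, cartilage condensation, cavitation of the joints and shaping of the joints. Each stage is 1 library of 1 litter, with the cells of 6 to 7 embryos of a single dam pooled. Every library shared the same handling: stepwise digestion with collagenase II and pronase with pipetting, a strainer, freezing in serum with DMSO under liquid nitrogen, thawing, and magnetic removal of dead cells. No library was prepared without these steps, and stage, litter and library cannot be told apart. Gene expression was measured by droplet sequencing of transcript 3′ ends, in which each unique molecular identifier (UMI) stands for 1 captured transcript.

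Immediate early genes are transcribed within minutes of a stimulus by factors already present in the cell, with no new protein needed. Most encode transcription factors such as Fos, Jun and Egr1, and others encode proteins that end the response, such as the phosphatase Dusp1 and the RNA-decay protein Zfp36. Growth factors, mechanical load and tissue dissociation all induce them, and in the limb skeleton Fos and Jun family factors also act in normal cartilage and bone. Heat shock genes encode chaperones that hold or refold proteins. Some, such as Hspa1a, are nearly silent until the factor HSF1 is activated, while others, such as Hspa8 and Hsp90ab1, are made at all times and at higher levels in growing cells.

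After filtering, the 4 libraries in stage order kept 2640, 2816, 2598 and 1904 cells, and their median depth per cell was 8943, 10276, 9956.5 and 6959.5 UMIs. The E18.5 library was the shallowest per cell and had the highest median mitochondrial share, 3.54%, against 2.60% to 2.92% in the earlier libraries. Summed UMIs without globin genes came to 26992279, 35140195, 29722387 and 14758059, and levels are given as CPM, the counts scaled to a common total. Of 10203 distinct barcodes 69 occurred in more than 1 library. The hindlimb factor Pitx1 was found in every library, at 251.9, 84.5, 67.5 and 17.8 CPM, and the forelimb factor Tbx5 at 0.48 to 0.81 CPM. Ranges in parentheses are exact 95% intervals that cover counting error only. They leave out variation between cells, embryos and litters, and with 1 library per stage no difference could be tested. A member is called higher or lower where the ratio of CPM was at least 2 in either direction, its whole interval lay on that side of 1 and the pair held at least 20 UMIs.

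The AP-1 and ATF factors, 9 genes whose proteins pair up to bind DNA, summed to 3014, 3989, 3274 and 4134 CPM in the 4 libraries in stage order. Jund, a Jun protein present in most resting cells, held 34.7% of the UMIs of this group and stood at 1475, 1182, 995.0 and 1405 CPM. Jun, its more inducible relative, stood at 712.9, 1177, 766.1 and 909.5 CPM. Fos, the partner that Jun proteins need for strong DNA binding, stood at 316.2, 1133, 976.2 and 771.0 CPM, so its lowest library was E11.5 and its highest E13.5. Atf3, a repressor induced by many stresses, was at 95.4, 95.4, 118.5 and 387.2 CPM, with E18.5 alone standing apart. Fosl1 and Fosl2, the later-acting Fos relatives, were also highest at E18.5, at 12.6 and 38.1 CPM, against 0.48 to 0.94 and 7.2 to 11.5 CPM earlier. Fosb, Junb and Maff ranged over 62.6 to 183.5, 185.9 to 417.1 and 23.6 to 60.4 CPM.

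The zinc finger and nuclear receptor factors summed to 555.2, 1241, 1097 and 1231 CPM. Klf2, which in vessels responds to blood flow, stood at 153.5, 599.6, 451.3 and 440.5 CPM. Klf4, a relative of Klf2 that slows division, stood at 148.8, 254.4, 231.2 and 236.0 CPM. Egr1, a growth-factor and load-responsive factor, stood at 55.3, 212.4, 221.4 and 99.5 CPM, high in the middle libraries and low at both ends. The orphan nuclear receptor Nr4a1 stood at 21.0, 38.6, 56.7 and 147.3 CPM, higher in each successive library. Egr3, a relative of Egr1, had 2 UMIs in each library and is not considered further, and Egr2, Klf6, Nr4a2 and Myc were at 1.6 to 6.6, 86.4 to 202.8, 24.7 to 63.6 and 13.5 to 34.1 CPM.

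Of the immediate early response proteins, small regulators named for their timing, Ier2 stood at 669.3, 489.9, 473.8 and 389.1 CPM, the only member of the 3 that was lowest at E18.5. Ier3, which limits cell death, stood at 75.8, 81.0, 94.7 and 212.4 CPM, and Ier5 at 99.8, 75.8, 73.8 and 202.2 CPM. The 8 genes of feedback, RNA decay and growth arrest summed to 1352, 844.6, 976.6 and 2024 CPM. Btg1, which slows division, stood at 466.5, 297.4, 403.5 and 616.7 CPM. Zfp36l1, which marks short-lived mRNAs for decay, stood at 397.7, 149.5, 157.8 and 261.7 CPM. Dusp1, a phosphatase that switches stress kinases off, stood at 218.7, 106.6, 102.2 and 305.9 CPM, so that the 2 outer libraries were above the 2 inner ones. Gadd45b, a stress sensor upstream of those kinases, stood at 88.4, 97.4, 93.0 and 373.9 CPM. The rest, Dusp2, Zfp36, Btg2 and Gadd45g, were each highest at E18.5, at 47.3, 126.5, 124.8 and 167.0 CPM.

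**Figure D1:**
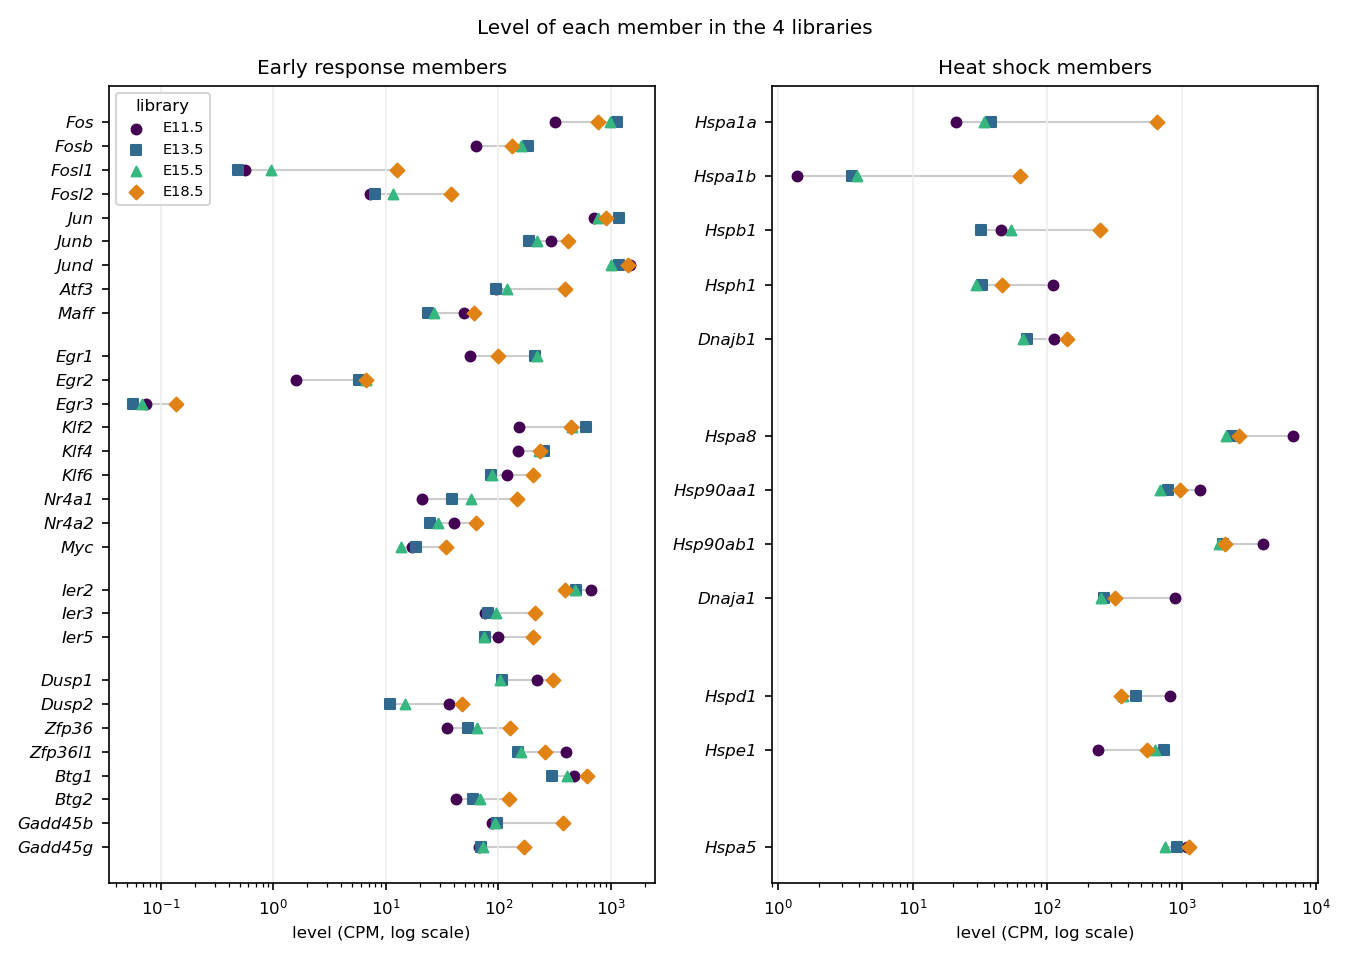
Level of each of the 41 members (rows, grouped by role) in the 4 libraries, in CPM on a log axis; each point is 1 library and the grey line spans the 4. Hspa1a stands at 658.9 CPM at E18.5 and at 20.9 to 38.5 CPM in the other libraries, while Hspa8 stands at 6756 CPM at E11.5 and at 2120 to 2666 CPM later.

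Among the heat shock genes the inducible and the constitutive chaperones had opposite extremes. The 5 heat-inducible chaperones summed to 290.3, 178.2, 187.8 and 1155 CPM, highest at E18.5. Hspa1a, the main inducible Hsp70, stood at 20.9, 38.5, 34.0 and 658.9 CPM. Its near-identical copy Hspa1b stood at 1.4, 3.6, 3.9 and 62.6 CPM, and how reads were divided between the 2 copies is uncertain. Dnajb1, the co-chaperone that loads clients onto Hsp70, stood at 113.2, 70.8, 66.4 and 141.1 CPM. Hspb1, a small heat shock protein that also binds the cytoskeleton, stood at 45.0, 32.4, 54.0 and 246.6 CPM. Hsph1, which recharges Hsp70, was the exception, at 109.7, 32.9, 29.6 and 46.1 CPM with its maximum at E11.5.

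The 4 constitutive cytosolic chaperones summed to 13047, 5446, 4952 and 6061 CPM, highest at E11.5. Hspa8, the housekeeping Hsp70, held 47.1% of the UMIs of this group and stood at 6756, 2351, 2120 and 2666 CPM. Hsp90ab1 and Hsp90aa1, the 2 cytosolic Hsp90 proteins, stood at 4023, 2034, 1888 and 2110 CPM and at 1376, 797.4, 691.0 and 964.4 CPM. Dnaja1, a co-chaperone of Hspa8, stood at 891.5, 263.5, 252.7 and 320.4 CPM. The mitochondrial pair went opposite ways from E11.5 to E13.5, and both were lower in each library after that. Hspd1, the chaperonin barrel, stood at 819.8, 457.3, 365.1 and 351.4 CPM, and Hspe1, its lid, at 238.4, 735.1, 636.7 and 553.0 CPM. Hspa5, the Hsp70 of the endoplasmic reticulum, stood at 1100, 926.5, 747.4 and 1124 CPM in whole libraries.

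The start regions of 4 members are shown because the inducible chaperones and the early genes carry different known control elements there. Entries of RefSeq (build GRCm38.p6, 300 bases around the start) were found for 33 of the 41 members. Those without an entry were the early members Fosl1, Egr1, Egr3, Myc and Ier2 and the chaperones Hspa8, Hsp90aa1 and Hsp90ab1. The counts of elements do not cover them. The heat shock element searched, GAANNTTC or TTCNNGAA read on both strands, occurred in 7 of the 9 heat shock members with an entry (Hspa1a, Hspa1b, Hspb1, Hsph1, Dnaja1, Hspd1 and Hspe1) and in 3 of the 24 early response members (Jun, Fosl2 and Egr2), against 15.1% of 32851 start regions of all genes. Capitals mark the heat shock element in the first 3 and the CArG box, the site of serum response factor, in Zfp36.
Hspa1a: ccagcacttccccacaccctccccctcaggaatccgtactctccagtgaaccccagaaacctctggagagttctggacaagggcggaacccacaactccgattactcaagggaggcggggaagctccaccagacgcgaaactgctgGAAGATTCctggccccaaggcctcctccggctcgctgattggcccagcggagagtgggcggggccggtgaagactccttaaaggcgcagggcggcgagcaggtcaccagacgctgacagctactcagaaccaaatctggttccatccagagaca
Hspa1b: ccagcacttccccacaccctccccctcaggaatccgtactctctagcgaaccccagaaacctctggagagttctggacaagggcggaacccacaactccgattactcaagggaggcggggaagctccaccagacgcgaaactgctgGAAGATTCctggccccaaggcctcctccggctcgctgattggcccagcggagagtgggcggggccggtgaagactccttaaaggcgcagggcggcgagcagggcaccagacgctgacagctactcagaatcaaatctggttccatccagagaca
Hspe1: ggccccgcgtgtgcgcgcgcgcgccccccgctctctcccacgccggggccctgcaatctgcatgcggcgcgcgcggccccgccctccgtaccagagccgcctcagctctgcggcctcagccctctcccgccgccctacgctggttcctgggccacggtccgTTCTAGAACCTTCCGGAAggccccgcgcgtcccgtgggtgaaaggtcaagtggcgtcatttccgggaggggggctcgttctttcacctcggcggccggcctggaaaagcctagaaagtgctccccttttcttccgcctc
Zfp36: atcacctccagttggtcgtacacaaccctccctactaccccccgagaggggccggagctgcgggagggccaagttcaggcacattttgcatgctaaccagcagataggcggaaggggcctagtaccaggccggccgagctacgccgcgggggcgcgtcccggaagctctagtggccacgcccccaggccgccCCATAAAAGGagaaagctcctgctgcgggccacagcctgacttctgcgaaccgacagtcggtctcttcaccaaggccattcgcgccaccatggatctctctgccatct
These lie at chr17:34972107-34972406 (minus strand), chr17:34959189-34959488 (minus strand), chr1:55087898-55088197 (plus strand) and chr7:28379179-28379478 (minus strand). The Hspa1a and Hspa1b stretches were identical at 296 of 300 bases, and their element began 104 bases before the start in both. In Hspe1 the capitals are 3 overlapping elements, and Hspd1 is transcribed the other way from the same bases. The CArG box occurred in 2 of the 24 early members (Zfp36 and Egr2; 1.63% of all start regions) and the cAMP response element TGACGTCA in 3 of 24 (Dusp1, Btg2 and Maff; 1.79%). The AP-1 site, TGACTCA or TGAGTCA, occurred in none of the 24 early members and in Hspa5 among the heat shock members (5.20% of all). A match is a description of letters in this window and not a bound site.

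Of the successive pairs of libraries, E18.5 over E15.5 had most members called, with 14 of 28 early response members and 4 of 12 heat shock members higher. At E18.5 over E15.5, 18 of 40 members were higher and 1 was lower (11.7% and 8.26% of all genes tested). Set against the median gene, 21 members were higher and 1 lower (13.6% and 6.39%). Hspa1a was 19.4-fold higher (18.2 to 20.7), Hspa1b 16.2-fold (13.3 to 19.8), Fosl1 13.4-fold (8.96 to 20.7), Hspb1 4.57-fold, Gadd45b 4.02-fold and Fosl2 3.32-fold. The only member lower was Egr1, at 0.450 of its E15.5 level (0.425 to 0.476). The other members higher were Atf3, Dusp2, Dusp1, Ier5, Nr4a1, Myc, Klf6, Gadd45g, Maff, Ier3, Nr4a2 and Dnajb1, at 2.12-fold to 3.27-fold. By role, heat-inducible chaperones were 6.15-fold higher (5.97 to 6.34) and feedback genes 2.07-fold, while constitutive chaperones were 1.22-fold and mitochondrial chaperones 0.903-fold. The summed early response arm was 1.37-fold, since its most abundant genes, Fos, Jun and Jund, were not called. The E18.5 library was also the shallowest per cell and the highest in mitochondrial share, and the part of either in the whole-library ratios was not tested. In such sums more cells of a high type and more RNA per cell cannot be told apart, which the values by cell class below address.

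Genes of the same kind outside the member list were compared in the same pair, against 11.7% higher and 8.26% lower of all genes. These lists were chosen with earlier results of these data known and are read in the same libraries. They are thus a description and no independent support for the values of the members. Of 39 other early response genes found in the tables, 21 were higher at E18.5 and 0 lower. They included Spry4, an inhibitor of growth factor signalling, at 16.7 against 1.99 CPM, Errfi1, an inhibitor of the EGF receptor, at 115.9 against 19.9 CPM, and Cebpb, an inflammatory transcription factor, at 614.6 against 111.3 CPM. Of 32 other HSF1 targets and chaperones, 6 were higher and 0 lower, among them the small heat shock proteins Cryab (212.9 against 23.9 CPM) and Hspb8 (47.1 against 7.77 CPM) and the haem-degrading enzyme Hmox1 (104.1 against 19.95 CPM). Of 20 genes of the unfolded protein response of the endoplasmic reticulum 1 was higher, the co-chaperone Dnajb9 (64.2 against 30.2 CPM), and 1 lower, the glutathione-degrading enzyme Chac1 (1.83 against 4.81 CPM). The cold-inducible pair gave no call in any comparison of libraries.

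Between E15.5 and E13.5 neither programme moved by the rule. None of 40 members was higher or lower in E15.5 (3.85% and 0.97% of all genes), and summed groups lay at 0.81-fold to 1.16-fold. Of the other early response genes 0 were called, and of the other chaperones 2 were higher, Cryab and Hspb2.

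At E13.5 over E11.5, 5 early members and 2 heat shock members were higher, and 4 early members and 3 heat shock members lower. In all, 7 of 40 members were higher and 7 lower (12.8% and 26.1% of all genes). The higher ones were Klf2 (3.91-fold, 3.78 to 4.04), Egr1 (3.84-fold, 3.63 to 4.06), Egr2 (3.61-fold), Fos (3.58-fold, 3.50 to 3.67), Hspe1 (3.08-fold), Fosb (2.93-fold) and Hspa1b (2.60-fold). The lower ones were Dnaja1 (0.296), Dusp2 and Hsph1 (both 0.300), Hspa8 (0.348, 0.345 to 0.351), Zfp36l1 (0.376), Maff (0.479) and Dusp1 (0.487). The median gene of this pair stood at -0.55 on the log2 scale, and relative to it 13 members were higher and 3 lower (19.6% and 9.54% of all genes). Short transcripts were higher at E13.5 across the table, with a median log2 ratio of 1.21 for 964 genes under 1000 nt and -0.63 for 12940 genes of at least 1500 nt. Hspe1, with a longest transcript of 964 nt, had a log2 ratio of 1.62, and of 0.91 relative to genes of like length, which is under 2-fold. Of the other early response genes 2 were higher and 15 lower (4 and 8 relative to the median gene), among the lower ones the growth factor feedback genes Dusp4 (1.99 against 13.6 CPM) and Dusp6 (24.99 against 135.9 CPM) and the kinase Plk2 (49.9 against 252.5 CPM). Of the other chaperones 2 were higher and 12 lower, or 3 and 1 relative to the median gene.

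Across the whole interval, E18.5 over E11.5, 18 members were higher and 4 lower (16.5% and 35% of all genes). Hspa1b was 45.7-fold higher, Hspa1a 31.5-fold, Fosl1 22.7-fold, Nr4a1 7.03-fold, Hspb1 5.48-fold and Fosl2 5.34-fold. Those lower were the chaperones Dnaja1 (0.359), Hspa8 (0.395), Hsph1 (0.420) and Hspd1 (0.429), and relative to the median gene 27 members were higher and 0 lower (24.3% and 14.1%). Short transcripts were higher in this pair too, with a median log2 ratio of 1.30 under 1000 nt and -0.73 at 1500 nt or more. Relative to genes of like length, the log2 ratio of Hspb1 (930 nt) went from 2.45 to 1.63 and that of Fosl2 (6537 nt) from 2.41 to 3.05.

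Inside each library the cell classes differed more than the libraries did in the early response genes. Cells were grouped by clustering in which the 41 members took no part, so that their levels did not set the classes. Named classes carry the word "like", since they rest on marker genes alone, and 5 clusters (2, 7, 20, 21 and 22) met no name and are called by number and by their leading genes. At E11.5 the summed early response arm was highest in cluster 2, led by Osr2 and Sfrp2, at 6964 CPM, next in endothelium-like cells at 6355 CPM, and lowest in cluster 7 at 3728 CPM. At E13.5 chondrocyte-like cells (8395 CPM) and joint-like cells (7549 CPM) led and muscle progenitor-like cells were lowest (2018 CPM). At E15.5 joint-like cells (9084 CPM) and osteoblast-like cells (7409 CPM) led and muscle progenitor-like cells were again lowest (1955 CPM). At E18.5 cluster 20, led by the cartilage genes Ucma and Fmod, stood at 17557 CPM, granulocyte-like cells at 13707 CPM and differentiating muscle-like cells at 2379 CPM. The lowest class in each of the 3 later libraries was thus a muscle class.

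**Figure D2:**
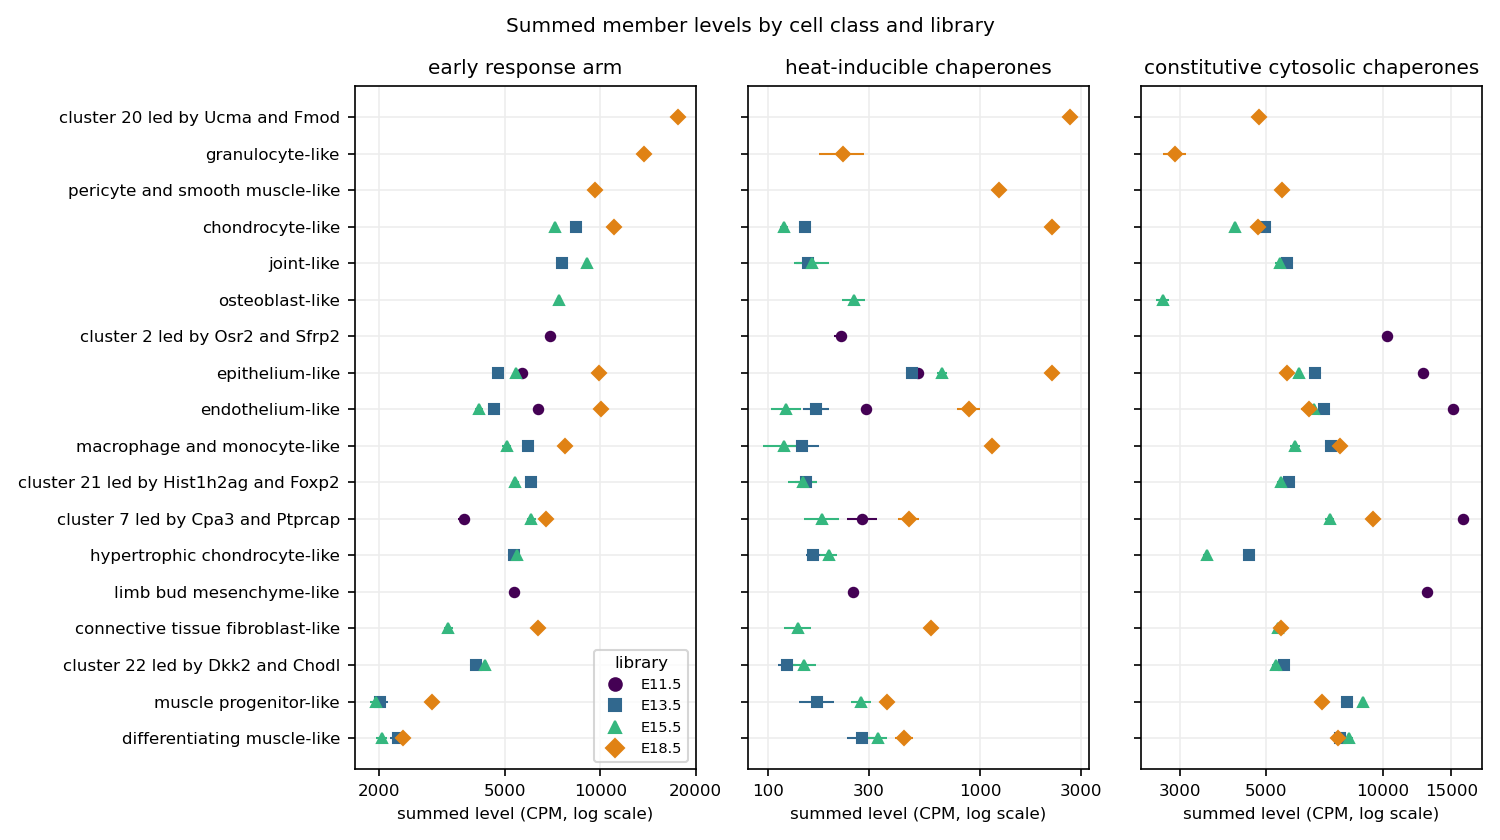
Summed CPM of the early response arm, the heat-inducible chaperones and the constitutive cytosolic chaperones (log axes) for each cell class with at least 30 cells in a library; points are libraries and bars are 95% counting intervals. Muscle classes lie lowest for the early response arm, E18.5 points lie highest for heat-inducible chaperones, and E11.5 points lie highest for constitutive chaperones.

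Chondrocyte-like cells, which make cartilage, had more Fos than the other cells of their library in all 3 libraries that held them. In stage order from E13.5, Fos stood at 1620 against 632, 1424 against 547 and 1940 against 719 CPM, ratios of 2.56, 2.60 and 2.70. Klf2 stood at 871 against 321, 629 against 281 and 1388 against 398 CPM, ratios of 2.72, 2.24 and 3.49. Fosb ratios were 2.40, 2.35 and 2.19. Jun, at 1684 against 656 and 1075 against 470 CPM, and Egr1, at 302 against 121 and 315 against 132 CPM, were higher at E13.5 and E15.5. The same cells were low in Hspb1, at 4.2 against 61.5, 5.4 against 100.5 and 46.0 against 256 CPM, and in the phosphatase Dusp2, at ratios of 0.0709, 0.0525 and 0.0644. Of the early members tested, 6 of 27 were higher and 2 lower at E13.5 (3.63% and 21.9% of all genes). The counts were 5 and 5 of 28 in the E15.5 library (5.15% and 20.3%), or 6 and 3 relative to the median gene (7.28% and 18%), and 3 and 7 of 28 in the E18.5 library (9.86% and 11.6%). The pattern was thus one of named genes and not of the whole list.

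Cluster 20 at E18.5, 195 cells, had the highest summed level of early response genes of any class and library. Klf2 stood at 2001 CPM in it against 289 CPM in the other cells, Fos at 3247 against 531 CPM, Egr1 at 355 against 74.8 CPM and Hspa1a at 2059 against 523 CPM. The ratios were 6.92, 6.11, 4.74 and 3.93, followed by Hspa1b at 3.36 and Ier2 at 3.22 (1048 against 325 CPM). In all 10 early members were higher and 4 lower (11.7% and 15.6% of all genes). Its median depth was 5937 UMIs per cell, under the 6959.5 of its library.

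Muscle progenitor-like cells stood below the other cells for nearly the whole early programme. Early members lower numbered 20 of 27 tested, 23 of 28 and 26 of 28 in stage order from E13.5, with 0 higher in each (11.3%, 17.4% and 25.5% of all genes lower, 4.05%, 4.56% and 4.35% higher). Fos stood at 105 against 1151 CPM at E13.5, a ratio of 0.0912 (0.0705 to 0.116), and at 114 against 1014 CPM at E15.5. Klf2 stood at 35.02 against 610, 46.2 against 469 and 48.4 against 518 CPM. Egr1 stood at 23.9 against 216 and 26.8 against 230 CPM at E13.5 and E15.5. At E18.5 Junb (44.3 against 491 CPM), Zfp36 (13.1 against 149 CPM), Nr4a1 (17.2 against 173 CPM) and Hspa1a (80.9 against 773 CPM) had ratios of 0.0903, 0.0882, 0.0996 and 0.105. These cells were not low in every member: at E15.5 Hsph1 (81.9 against 27.3 CPM), Hspd1 (911 against 342 CPM) and Hspb1 (134 against 50.5 CPM) were higher. Their median depth was above that of their library, at 14839, 15825 and 7418 UMIs per cell in stage order.

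Differentiating muscle-like cells, which carry sarcomere genes, showed the same with exceptions. Early members lower numbered 18 of 27, 18 of 28 and 24 of 28 in stage order from E13.5 (13.7%, 23.4% and 28.0% of all genes). Fos stood at 124 against 1149 CPM at E13.5. Gadd45g was higher, at 287 against 66.1 CPM at E13.5 and 210 against 67.2 CPM at E15.5, and so was Hspb1, at 200 against 29.8 and 223 against 47.5 CPM. Hspb1 is known in muscle as a chaperone of the contractile cytoskeleton.

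Endothelium-like cells, the lining of vessels, carried a different set. At E11.5, 12 of 27 early members were higher and 3 lower (10.0% and 23.7% of all genes), and 14 were higher and 0 lower relative to the median gene (13.6% and 18.1%). Dusp2 stood at 165 against 8.4 CPM, Nr4a1 at 68.5 against 10.6 CPM, Junb at 929 against 157 CPM, Klf2 at 441 against 90.7 CPM and Atf3 at 248 against 62.2 CPM, ratios of 19.6, 6.46, 5.91, 4.87 and 3.99, with Fosl2 at 5.25. The 3 lower were Jun (0.414), Jund (0.429) and Egr1 (0.430). Dusp2 was higher in this class in all 4 libraries, at 19.6, 21.7, 19.3 and 6.55 times the other cells. Fos was lower in it in the later 3 libraries, at 305 against 1161, 240 against 1008 and 295 against 780 CPM. At E18.5 Maff stood at 557 against 50.7 CPM and Klf4, a flow-induced factor like Klf2, at 791 against 225 CPM.

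In epithelium-like cells, the future skin, the inducible chaperone Hspb1 was higher than in other cells in all 4 libraries. In stage order Hspb1 stood at 261 against 10.4, 213 against 15.6, 369 against 31.9 and 806 against 172 CPM. The ratios were 25.01, 13.6, 11.6 and 4.69, and Hspb1 is known in skin as a protein of differentiating keratinocytes. Hspa1a stood at 48.0 against 16.6, 126 against 30.4 and 143 against 26.4 CPM in the first 3 libraries. At E18.5 its 951 CPM lay below the 1836 CPM of chondrocyte-like cells and the 2059 CPM of cluster 20. Atf3 stood at 338 against 103 CPM at E15.5 and 1245 against 273 CPM at E18.5, and Fosl1 at 65.1 against 5.6 CPM at E18.5. Klf2 was low in these cells in all 4 libraries, at ratios of 0.206, 0.0893, 0.111 and 0.129.

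Macrophage and monocyte-like and granulocyte-like cells had both high and low early members. In macrophage and monocyte-like cells at E13.5, 9 early members were higher and 7 lower (10.3% and 18.4% of all genes), or 12 and 3 relative to the median gene (13.8% and 13.3%). Among the higher ones were Dusp2 (10.5-fold), Fosl2 (7.67-fold), Dusp1 (635 against 94.5 CPM, 6.72-fold), Zfp36 (4.60-fold), Junb (766 against 173 CPM, 4.44-fold) and Klf6 (3.73-fold). Jun was lower in this class at all 3 stages measured, at ratios of 0.185, 0.269 and 0.319. In granulocyte-like cells at E18.5, 10 early members were higher and 7 lower (7.5% and 27.8% of all genes). The median gene of that comparison stood at -1.01 on the log2 scale, and relative to it 15 were higher and 3 lower (13.9% and 8.99%). The early members were led by Dusp1 at 1763 against 275 CPM and Btg1 at 3344 against 559 CPM. Of the 12 heat shock members, 8 were lower in granulocyte-like cells, with Hspa1a at 55.4 against 672 CPM.

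Vessel-wall and bone classes were each measured in 1 library. In pericyte and smooth muscle-like cells at E18.5, 11 early members were higher and 1 lower (9.26% and 15.7% of all genes), with Nr4a1 at 402 against 86.7 CPM and Gadd45b at 778.9 against 277.6 CPM in front. Only 6 were higher when both muscle classes were left out of the other cells. In osteoblast-like cells at E15.5, 8 early members were higher and 0 lower (9.24% and 14.9% of all genes), with Fosl2 at 3.75-fold and Ier3 at 278 against 88.4 CPM. Hsph1 (0.167), Hspd1 (0.279) and Hspa8 (0.405) were low there. That name is not secure: Mmp13 and Col10a1 stood beside Spp1 and Ibsp among the leading genes, and with clustering at resolution 0.5 Spp1 and Ibsp led hypertrophic chondrocyte-like cells, with no osteoblast-like cluster found. In limb bud mesenchyme-like cells at E11.5, 0 early members were higher and 9 lower of 27 (4.09% and 15.4% of all genes).

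Within cell classes the sum of the inducible chaperones was higher at E18.5 than at E15.5 in most classes, while the early response arm shifted less. The pair could be compared in 7 named classes. Hspa1a was higher in 7 of 7: 1836 against 31.2 CPM in chondrocyte-like cells, 529 against 8.13 in endothelium-like, 828 against 20.4 in macrophage and monocyte-like, 42 against 1.84 in differentiating muscle-like, 387 against 22.5 in connective tissue fibroblast-like, 80.9 against 9.73 in muscle progenitor-like and 951 against 143 in epithelium-like cells. The Hspa1a ratios ran from 6.64 to 65.0 with a median of 22.8, and the one in differentiating muscle-like cells rests on 2 UMIs at E15.5 (5.92 to 195). In both muscle classes at E18.5, fewer cells held a Hspa1a UMI than a skin keratin UMI (values below). The keratins were also more abundant than Hspa1a in that library, so these shares are not on the same scale. The part of RNA free in the droplets in the Hspa1a ratios was not tested. Summed heat-inducible chaperones were higher in 5 of 7, at 18.3-fold in chondrocyte-like (17.0 to 19.6), 9.52-fold in macrophage and monocyte-like, 7.27-fold in endothelium-like, 4.26-fold in connective tissue fibroblast-like and 3.29-fold in epithelium-like cells, and at 1.33-fold in both muscle classes. In chondrocyte-like cells at E18.5, Hspa1a made up 1836 of the 2177 CPM of this sum. Singly, Hspa1b was higher in 5 of 5 classes tested and Hspb1 in 5 of 7. Dnajb1 and Hsph1 were higher in only 2 of 7 each, at median ratios of 1.90 and 1.32. Constitutive chaperones were called in 0 of 7 (0.78-fold to 1.31-fold). The ER chaperone Hspa5 was above 1 in 7 of 7, at a median of 1.68-fold (1.42-fold to 2.73-fold), and called in 1. The early response arm was above 1 in 7 of 7 and called only in endothelium-like cells, at 2.42-fold, with a median of 1.53-fold.

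**Figure D3:**
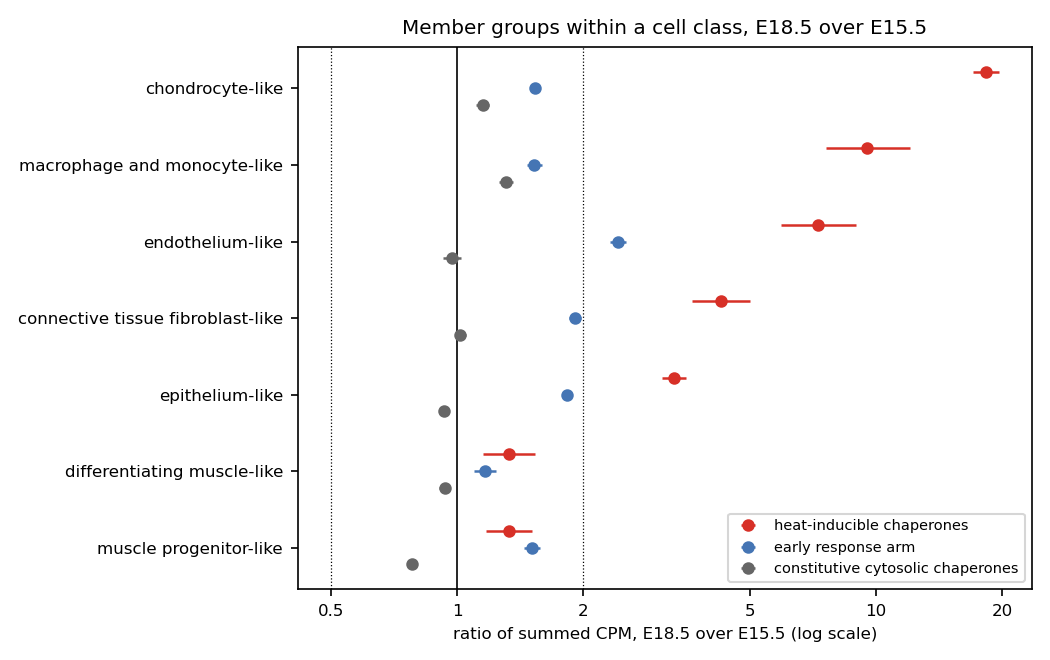
Ratio of summed CPM at E18.5 over E15.5 (log axis) within each of 7 named classes for 3 member groups, with 95% counting intervals; the solid line is 1 and dotted lines are 0.5 and 2. Heat-inducible chaperones run from 1.33-fold to 18.3-fold, the early response arm from 1.17-fold to 2.42-fold and constitutive chaperones from 0.78-fold to 1.31-fold.

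Counts of members went the same way in these 7 classes. At E18.5 over E15.5, 18 of 37 members tested were higher in endothelium-like cells (8.79% of all genes), 15 of 38 in connective tissue fibroblast-like (7.31%), 13 of 40 in epithelium-like (8.59%) and 12 of 38 in muscle progenitor-like cells (5.57%). The count was 11 of 38 in macrophage and monocyte-like (4.99%), 9 of 39 in chondrocyte-like (4.05%) and 4 of 32 in differentiating muscle-like cells (3.14%). The only member lower in any of them was Gadd45g in differentiating muscle-like cells, at 94.3 against 210 CPM, and relative to the median gene that class had 7 higher and 0 lower (5.37% and 6.0%). In the order of classes just given, 8.55%, 7.89%, 9.38%, 7.26%, 12%, 2.19% and 10.1% of all genes were lower. Gadd45b was higher in 6 of 7 classes with a median ratio of 2.81, Atf3 in 5 (3.69) and Hspb1 in 5 (3.09). Endothelium-like cells at the 2 stages came mostly from partly different clusters, 11 and 23 at E18.5 and 4 and 11 at E15.5. Epithelium-like cells came mostly from cluster 26 at E18.5, and from cluster 10 (121 cells) and cluster 26 (42 cells) at E15.5. There were 75 chondrocyte-like cells at E18.5 against 1173 at E15.5.

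Fos and Egr1 were lower in the whole E18.5 library than in the E15.5 library, but by CPM were called in no class. Summed over all cells Fos stood lower at E18.5 than at E15.5, 771.0 against 976.2 CPM, but within classes its ratio was above 1 in 6 of 7 (median 1.36, 0.95 to 1.91) and called in none. Egr1, at 0.450 in whole libraries, was called in 0 of 7 classes, with a median of 0.96 and a range of 0.52 to 1.86. Relative to the median gene of the class, Fos was called higher in 2 classes, and Egr1 higher in 1 and lower in 1. Chondrocyte-like cells, which held 4579 of the 6582 Egr1 UMIs at E15.5, were 3.94% of kept cells at E18.5 against 45.2% at E15.5. Cluster 20, in which 12 chondrocyte markers were found but which met no name, held a further 10.2% at E18.5 and 0.346% at E15.5.

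Free RNA in the droplets adds UMIs of a gene to cells that do not express it, and the skin keratins Krt5, Krt14 and Krt15 give its size at E18.5. In the 10 classes other than epithelium-like these keratins stood at 2.10% to 3.39% of their level in the whole library. Hspa1a stood at 6.36% of its library level in differentiating muscle-like, 8.41% in granulocyte-like and 12.3% in muscle progenitor-like cells, and at 312% in cluster 20. In differentiating muscle-like cells at E15.5, Hspa1a stood at 5.40% of its library level and the keratins at 4.11% of theirs. The share of cells with a Hspa1a UMI was 24.5% in differentiating muscle-like cells (41.5% with a keratin UMI), 30.3% in muscle progenitor-like cells (31.9%) and 21.8% in granulocyte-like cells (23.6%), at median depths of 8808, 7418 and 3788 UMIs. No expression is read from those shares. The shares in chondrocyte-like cells (65.3% against 30.7%) and pericyte and smooth muscle-like cells (81.3% against 33.3%) stood above the keratin shares of the same cells.

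Within classes E15.5 and E13.5 again differed little: of 8 named classes, 4 had 0 members called. These were chondrocyte-like (1.8% of all genes higher and 0.689% lower), hypertrophic chondrocyte-like (2.04% and 1.35%), joint-like (1.24% and 2.0%) and differentiating muscle-like cells (1.16% and 4.85%). Endothelium-like cells had 1 member higher and 2 lower (2.1% and 2.34%), epithelium-like 3 and 0 (1.62% and 2.57%), macrophage and monocyte-like 2 and 1 (4.47% and 3.23%) and muscle progenitor-like 1 and 0 (2.26% and 2.41%). The calls included Atf3 (338 against 140 CPM) and Nr4a1 (99.1 against 40.2 CPM), both higher in epithelium-like cells, Nr4a1 in macrophage and monocyte-like cells (109 against 49.6 CPM) and Gadd45b in endothelium-like cells (137 against 46.0 CPM).

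E13.5 and E11.5 shared 2 named classes with enough cells, endothelium-like and epithelium-like. Different clusters held most of each class in the 2 libraries: cluster 4 at E13.5 and cluster 3 at E11.5 for endothelium-like cells, and clusters 10 and 26 at E13.5 and 5 and 6 at E11.5 for epithelium-like cells. In both the constitutive chaperone Hspa8 was lower at E13.5, at 3348 against 8683 CPM and 2669 against 6048 CPM, ratios of 0.386 and 0.441. Hsph1 was lower in both (0.303 and 0.442) and Hspe1 higher in both (2.79 and 2.94), in ratios that are not set against genes of its short length. Constitutive chaperones as a sum stood at 0.467 and 0.530. Relative to the median gene of the class, neither Hspa8 nor this sum was called lower in either class, and Hsph1 was called lower in 1. The ER chaperone Hspa5 stood at 0.454 to 0.580 and was called lower in 1 class, or in 0 relative to the median gene. Fos, at 3.58-fold in whole libraries, was 1.45-fold in endothelium-like cells (305 against 210 CPM) and 1.38-fold in epithelium-like cells (609 against 440 CPM). Klf2, at 3.91-fold in whole libraries, was 0.742-fold and 1.64-fold in these classes. Chondrocyte-like cells, high in both genes, were 40.5% of kept cells at E13.5, and no class of that name reached 30 cells at E11.5, although the E11.5 library clustered by itself gave a chondrocyte-like cluster of 154 cells. In all, 2 members were higher and 7 lower of 37 in endothelium-like cells (6.81% and 15.2% of all genes) and 8 and 5 of 39 in epithelium-like cells (7.73% and 22.3%). Relative to the median gene the counts were 3 and 1 (11.1% and 2.75%) and 12 and 0 (13.3% and 6.53%).

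The spread over 33 combinations of class and library, from 12 classes found in at least 2 libraries, was divided between class and library. For the early response arm, class alone accounted for 79.2% of the sum of squares of log2 CPM and library alone for 8.17%. For the summed heat shock arm these shares were 58.2% and 65.0%. For AP-1 and ATF factors the shares were 81.2% and 6.13%, for zinc finger and nuclear receptor factors 87.6% and 2.59%, and for immediate early response proteins 87.6% and 1.62%. Heat-inducible chaperones had the order turned, with 34.1% for class and 62.3% for library. Constitutive chaperones had 61.9% and 58.6%, where the shares overlap because E11.5 shared few classes with the later libraries. Without the E18.5 library, the share of library after class fell to 4.15% for heat-inducible chaperones, against 48.8% with it. Without E11.5 it fell to 2.70% for constitutive chaperones, against 34.0% with it. For the early response arm it fell to 0.0762% without E18.5, against 14.1% with it. The library part thus rested on E18.5 for inducible chaperones and early response genes and on E11.5 for constitutive chaperones. These shares use CPM not set against the median gene or genes of like transcript length. At E13.5 over E11.5, log2 ratios of Hspa8, Hsp90ab1, Hsp90aa1 and Dnaja1 were -1.52, -0.98, -0.79 and -1.76. Relative to genes of like length they were -0.87, -0.38, -0.03 and -1.17, so part of the E11.5 share was not particular to chaperones. The order for heat-inducible chaperones also depended on the minimum of cells. In the 19 combinations with at least 100 cells, class after library was 36.3% and library after class 23.8%, against 20.7% and 48.8% in all 33.

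**Figure D4:**
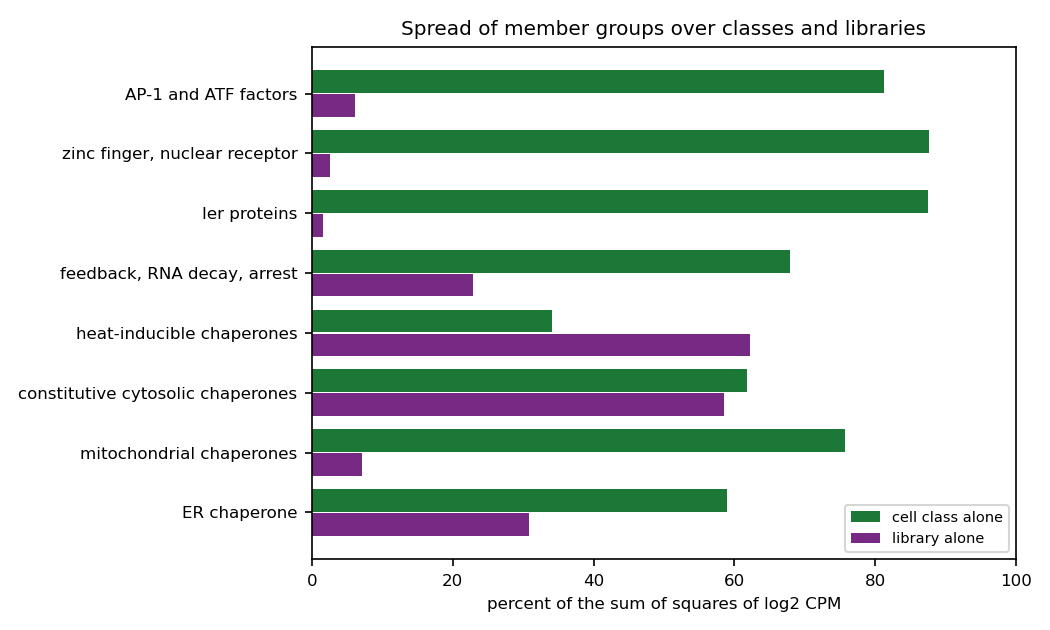
Percent of the sum of squares of log2 CPM over 33 class and library combinations that cell class alone (green) and library alone (purple) accounted for, by member group. Of the 8 role groups shown, class is the larger for all but the heat-inducible chaperones (34.1% and 62.3%), and the 2 shares are close for constitutive cytosolic chaperones.

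The same shares were taken for single members. Of the 26 members with at least 5 UMIs in each combination, class had the larger share in 23. These were 16 of 17 early response members, such as Klf2 (93.3% for class and 0.66% for library), Fos (91.9% and 8.36%) and Junb (91.7% and 8.08%), the exception being Gadd45b (34.8% and 50.2%). They were also 7 of 9 heat shock members, the exceptions being Hsph1 (50.2% and 52.3%) and Hspa8 (59.4% and 59.8%). Dnajb1 (65.2% and 28.9%) had the order opposite to its group. For want of UMIs in some combinations, 15 members were left out: Hspa1a, Hspa1b, Hspb1, Fosl1, Fosl2, Atf3, Maff, Egr1, Egr2, Egr3, Nr4a1, Nr4a2, Myc, Dusp2 and Zfp36. Most of those left out, such as Hspa1a, Fosl1 and Atf3, were called higher at E18.5 over E15.5. The minimum thus left out many members that differed between libraries, and the counts of 23, 16 and 7 do not speak for them. The median range over classes within a library was 2.14 on the log2 scale for the early response arm, and the median range over libraries within a class 0.60. For heat-inducible chaperones these were 2.21 and 1.23.

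In none of 26 combinations of class and library did either summed arm differ by the rule between deep and shallow cells. Over 39 combinations, Spearman's rho between the median UMIs per cell and the summed level was -0.51 for the early response arm and 0.64 for mitochondrial chaperones, as a description, since combinations share libraries. Over the classes of each library, rho for the early response arm was -0.70, -0.20, -0.22 and -0.67 in stage order (5, 10, 13 and 11 classes). Inside 26 combinations with at least 90 cells, the deepest tertile of cells (the 1 in 3 with most UMIs) had a median of 0.93 times the early response arm CPM of the shallowest tertile (0.64 to 1.30, above 1 in 7 of 26) and 1.10 times the heat shock arm (0.67 to 1.25, above 1 in 22 of 26). Fos had a median ratio of 0.99, Jun of 1.01 and Hspa1a of 0.86. Over all combinations 10 member ratios were higher and 39 lower of 902 (2.96% and 2.43% of all genes). Heat-inducible chaperones were lower in the deepest tertile in 2 combinations, cluster 20 (1716 against 4899 CPM) and connective tissue fibroblast-like cells (457 against 976 CPM), both at E18.5. Zinc finger and nuclear receptor factors, immediate early response proteins and feedback genes were each lower in 1 combination, at 0.367, 0.376 and 0.481. In differentiating muscle-like cells at E18.5, 6 of 25 members tested were lower and 0 higher (50 and 88 of 2754 genes). The 6 were Fos, Junb, Egr1, Klf2, Ier2 and Hsph1. Mitochondrial chaperones were the group most tied to depth, at a median of 1.21 (0.85 to 2.29, above 1 in 23 of 26). By tertiles of mitochondrial share, the upper one had a median of 0.81 times the early response arm of the lower (above 1 in 3 of 26).

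**Figure D5:**
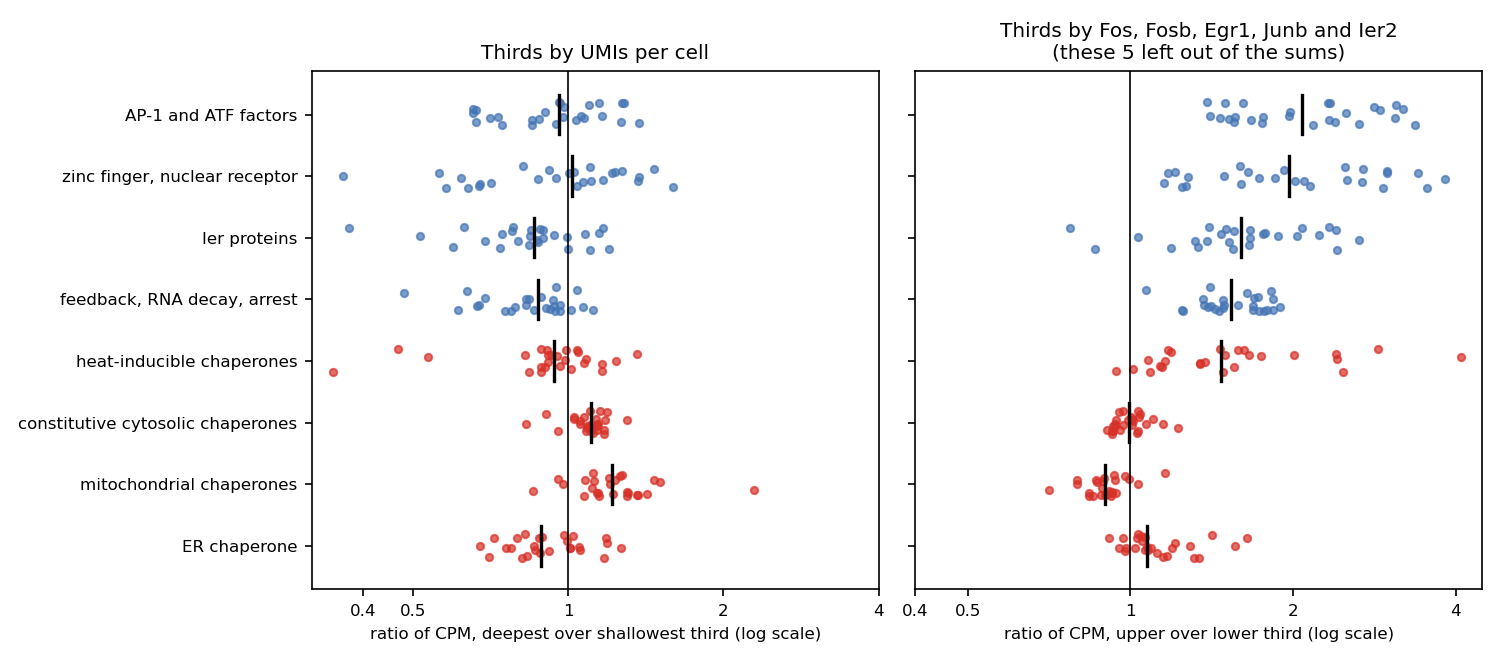
Ratio of CPM (log axis) between tertiles of cells inside each of 26 combinations of class and library, by member group; points are combinations and black bars medians. Left, deepest over shallowest tertile, with medians from 0.86 to 1.21; right, upper over lower tertile by 5 early genes that are left out of the sums, with medians of 1.54 to 2.08 for the early response groups and 0.99 for constitutive chaperones.

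Inside combinations of class and library, the summed CPM of the other early genes was higher in cells high in 5 early genes than in cells low in them, though by less than 2-fold in most combinations. Cells were ordered by Fos, Fosb, Egr1, Junb and Ier2 after thinning each cell to 3000 UMIs, and the remaining members were compared between the upper and the lower tertile. The early response arm without these 5 genes was higher in the upper tertile in 26 of 26 combinations, at a median of 1.88 (1.29 to 2.92), and called in 10. Zfp36 had a median ratio of 2.95 (called in 19 of 24), Klf2 of 2.85, Atf3 of 2.36, Nr4a1 of 2.32 and Jun of 2.20. Of the heat shock members Hspa1a went with them, at 2.35 and above 1 in 22 of 22, and Hspa1b at 2.33 in 8 of 8, with Dnajb1 at 1.34. Hspa8 (0.99), Hsp90ab1 (1.00) and Hsph1 (0.96) stood near 1, and mitochondrial chaperones stood at 0.90. Zfp36l1 (1.34), Fosl2 (1.32, in 12 combinations), Btg1 (1.30) and Myc (1.05) had the lowest medians among the early members. Over all combinations 212 of 779 member ratios were higher and 1 lower (2.37% and 1.34% of all genes). Median depths of the upper and lower tertiles were 5359.5 to 17041 and 5339.5 to 21923 UMIs per cell over the combinations.

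Inducible members were also unevenly spread over single cells. The 10% of cells with most Hspa1a UMIs held 72.4%, 67.1%, 67.4% and 70.3% of them in stage order. For Fos these shares were 41.01%, 44.5%, 43.3% and 58.5%, and for the constitutive Hspa8 28.7%, 29.8%, 31.7% and 30.3%. The 10% of cells with most UMIs held 21.9% to 23.3% of all UMIs. The share for Hspa1a was thus as high in the libraries where the gene was scarce as at E18.5, and the part of low counts in this was not tested.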

How the data were processed

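The deposited files hold UMI counts for each gene in each barcode, which the authors produced with Cell Ranger on build mm10, per the submitters' processing notes, which also name Seurat 2.3.4. How barcodes were called, and any use of strand, were not given in the sources used here. A library made from a mixture with human cells is not analysed here. Barcodes with at least 200 genes and at most 10% mitochondrial UMIs were kept, 9958 of 10272. No doublet caller was run, and doublets are treated as present. UMIs were summed and divided by totals without 10 globin genes (CPM). CPM here is not divided by transcript length, because each UMI is 1 transcript end. Ratios have exact conditional binomial 95% intervals, levels exact Poisson and shares exact Clopper-Pearson ones. All cover counting error only.

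Cells were clustered with scanpy 1.11.5 (2000 variable genes without the 41 members, 30 components, 15 neighbours, Leiden resolution 1), giving 29 clusters, named where at least 3 markers of 1 of 20 lists were found in at least 20% of cells and 2-fold above other cells. The naming rules were tightened after the data were seen, and unnamed clusters held 24.5%, 25.6%, 16.6% and 13.8% of kept cells in stage order. Classes needed 30 cells and tertiles of cells 90. Gene annotation was GENCODE vM21, and start regions came from RefSeq (GRCm38.p6). The rule of size and its intervals were tested on simulated counts with counting error only. The simulation held no variation between cells, embryos or litters, so it cannot show how the rule behaves under such variation.

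The members and lists were chosen with earlier results of these data known. The text gives all 41 members, the 3 with most UMIs of each role in every library, and in each comparison the called members with the largest ratios, at most 6 in each direction. Alternatives were other scalings, folds, filters, clusterings and left-out libraries.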

Additional observations from a re-analysis of the deposited data

Results flagged for a closer look

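A few members moved in opposite directions in 2 cell classes under the same comparison of libraries, each past the rule of size in its own class. With 1 library per stage these differences between classes were not tested, and no explanation is weighed. Gadd45g, a growth arrest gene, was 2.52-fold at E13.5 over E11.5 in epithelium-like cells (117 against 46.4 CPM) and 0.457-fold in endothelium-like cells (59.7 against 131 CPM). Hspa1a in the same pair of libraries was 2.62-fold in epithelium-like cells (126 against 48.0 CPM) and 0.490-fold in endothelium-like cells (10.2 against 20.9 CPM, from 12 and 101 UMIs). At E15.5 over E13.5, Hspb1 was 2.002-fold in muscle progenitor-like cells (134 against 66.8 CPM) and 0.477-fold in endothelium-like cells (21.2 against 44.3 CPM, from 26 and 52 UMIs). At E18.5 over E15.5, Gadd45g was 3.53-fold in endothelium-like cells (195 against 55.3 CPM) and 0.448-fold in differentiating muscle-like cells (94.3 against 210 CPM). Set against the median gene, the lower calls of Gadd45g and Hspa1a in endothelium-like cells and of Gadd45g in differentiating muscle-like cells did not hold, so that 3 of these 4 pairs were then no longer opposite by the rule, and Hspb1 alone was. The clusters that held most endothelium-like cells differed in part or in whole between the libraries of each pair. Most of them were in cluster 3 at E11.5, cluster 4 at E13.5, clusters 4 and 11 at E15.5 and clusters 11 and 23 at E18.5.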

How the results depend on the processing

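No paired analysis was possible because each stage is 1 library, so the groups share fewer than 2 replicate numbers. No called summary value turned its direction under the alternatives run, but at E13.5 over E11.5 the uncalled Hspa5 stood at -0.25 and, relative to genes of like length, at 0.51 on the log2 scale, and Klf6 at -0.45 and 0.23. In that pair, 2 higher and 7 lower members in endothelium-like cells became 3 and 1 relative to the median gene, and 2 and 12 of the other chaperones in whole libraries became 3 and 1. Each cause below was not tested unless the alternative itself sets it. Members higher at E13.5 over E11.5 numbered 7, against 13 relative to the median gene, 12 at 1.5-fold, 11 with a total without mitochondrial and ribosomal genes and 12 relative to genes of like transcript length. Members lower numbered 7, against 3, 14 and 4 for the median gene, 1.5-fold and like length. At E15.5 over E13.5, 1.5-fold gave 2 higher and 1 lower and like length 1 higher, against 0. At E18.5 over E11.5, the 4 lower became 0, 7, 1 and 0 under the median gene, 1.5-fold, the total without mitochondrial and ribosomal genes and like length. The early response arm at E18.5 over E15.5, a ratio of 1.37, was 2.07 by the median of its members. Classes in which it was higher numbered 1 of 7, but 2 of 7 with each library clustered by itself, 3 of 9 by highest marker score per cell and 3 of 7 relative to the median gene. Classes with constitutive chaperones lower at E13.5 over E11.5 numbered 1 of 2, but 4 of 6, 2 of 4 (resolution 0.5), 6 of 9 and 0 of 2. Pericyte early members higher were 6 in place of 11 without both muscle classes. The early arm's library share after class, 14.1%, was 38.8% at 100 cells and 0.0762% without E18.5. For constitutive chaperones class after library was 37.3%, with 20.8% at 100 cells and 85.9% without E11.5, and library after class 34.0%, with 67.5% by separate clustering and 2.70% without E11.5. For heat-inducible chaperones class after library was 20.7%, with 36.3% at 100 cells and 72.0% without E18.5, and library after class 48.8%, with 23.8% and 4.15%. Class was thus the larger under both of these alternatives. Alternatives added after seeing the data are like length, left-out libraries, the pericyte comparison and leaving out the 10% of cells with most heat-inducible UMIs. The count in muscle progenitor-like cells at E13.5 had no value under separate clustering. Depth limits Egr3, Hspa1b and Fosl1 most, and intervals take UMIs as independent.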
